A study of Mus musculus with 6 samples.

Results

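Interferon response genes are the genes through which a cell perceives interferon and answers it. The set held 46 named genes, namely interferon regulatory transcription factors, interferon receptors, regulators and interferon-induced genes, and a gene counted as measured when a probe set of the array carried its symbol and no other. That was so for 43 of the 46, out of 19938 genes in all. Isg15 and Gbp2 lay on probe sets shared with other symbols and Ifi44 had no probe set named here, so these 3 were not analysed here. Where a gene had several probe sets, the one with the highest mean over the arrays stood for it. The samples were 6 cultures of female mouse embryonic stem (ES) cells of mixed C57BL/129 background, each hybridised to 1 Affymetrix Mouse Gene 1.0 ST array. In 3 cultures both Scc1 alleles were flanked by lox sites (Scc1 lox/lox ERT2-Cre), and in 3 both were wild type (Scc1 wt/wt ERT2-Cre). All 6 carried ERT2-Cre, a Cre recombinase that tamoxifen brings into the nucleus, and all received 4-OHT (4-hydroxytamoxifen) during 24 h. The dose is 80 nM in the sample labels and is given in mM in the design text. Cells grew on laminin in N2B27 with LIF and 2i, inhibitors that hold ES cells in the naive state. Scc1, named Rad21 on the array, is the kleisin subunit of cohesin, a ring that holds DNA strands together and shapes chromosome loops. The labels do not say what drives ERT2-Cre or how many clones each genotype stands for. No culture without 4-OHT was analysed, so loss of Rad21 and older differences between the lines cannot be told apart.

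Interferons are secreted signalling proteins. Type I interferons are made by many cell types after they sense foreign nucleic acid, and interferon gamma mainly by T cells and NK cells. Type I interferons bind a receptor of Ifnar1 and Ifnar2, and interferon gamma binds one of Ifngr1 and Ifngr2. Janus kinases on these receptors activate STAT proteins, which bind short DNA motifs called ISRE and GAS and switch on antiviral genes. Pluripotent stem cells are known to respond weakly to interferon while expressing some antiviral genes, Ifitm genes among them, without it.

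Levels are log2 intensities as deposited, and changes are lox/lox minus wt/wt. A gene is said to be called when limma gave it a p under 0.05 after Benjamini-Hochberg adjustment across the 19938 genes. Rad21 had levels of 6.08, 6.06 and 6.14 in lox/lox cells, against 10.05, 9.99 and 10.01 in wt/wt cells, so its level followed the label on every array. Correlations between arrays over all probe sets ran from 0.9892 to 0.9947. In a principal component analysis of each array's deviation from its genotype mean, lox/lox replicate 3 and wt/wt replicate 2 stood apart, with loadings of -0.54 and -0.58 where the others had 0.10 to 0.47. The 10 ES cell markers, with mean levels from 8.39 to 13.16, all lay above the median of all values on the arrays (4.90). As a list they averaged 10.21 to 10.33 per array in lox/lox cells, against 10.62 to 10.67 in wt/wt cells. Of the 10, 5 were called lower (50%, beside 3.61% of all genes), Klf4 the most at -1.23. In all 10 every lox/lox array was below every wt/wt array, beside 12.7% of all genes. The 11 fibroblast markers measured averaged 5.40 to 5.53 per array in lox/lox cells, against 5.32 to 5.52 in wt/wt cells, and 0 were called. A mean above the median of all values was found in 6 of them. Vim was the highest, with 11.80 in lox/lox cells and 11.56 in wt/wt cells. In 3 fibroblast markers, Vim, Twist1 and Dcn, every lox/lox array was above every wt/wt array, beside 10.1% of all genes. The 11 immune cell markers measured averaged 4.98 to 5.01 per array in lox/lox cells, against 5.02 to 5.12 in wt/wt cells. Of these 11, 7 had a mean at or below the median of all values, among them Ptprc, which defines blood cells and averaged 3.94 in lox/lox cells and 3.96 in wt/wt cells. Laptm5, a lysosomal membrane protein gene, was the highest of the list and averaged 9.63 in lox/lox cells and 9.68 in wt/wt cells. Cd68 was called higher, with means of 6.94 in lox/lox cells and 6.52 in wt/wt cells, and Cd3e was called lower, with means of 5.59 in lox/lox cells and 6.34 in wt/wt cells. The part of these marker levels in the results was not tested. In bulk RNA, fewer cells of a type and less RNA per cell cannot be told apart.

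A minority of the interferon response genes passed the test, and the Ifit, Mx and Oas genes, the best known antiviral genes, were not among them. Among the measured members of these families, only Oas1a and Oasl1 had a mean above the median of all values. Xaf1 was 2.84-fold lower in lox/lox cells, Ifitm3 1.80-fold, Ifngr1 1.51-fold and Ifitm1 1.26-fold lower, while Ifngr2 was 1.92-fold higher. Of the 43 members 5 (11.6%) were called, 1 higher and 4 lower, beside 6.16% of all genes, 2.55% higher and 3.61% lower. All 5 were among the 26 members with a mean above the median of all values, a share of 19.2%. Of all genes above that median 10.0% were called, and of those at or below it 0.972%. An unadjusted p under 0.05 was reached by 11 members (25.6%), beside 18.0% of all genes. In 14 members (32.6%) the arrays of the genotypes did not overlap, beside 22.8% of all genes. Of these, 6 were higher and 8 lower in lox/lox cells, beside 10.1% of all genes higher and 12.7% lower. The median change was 0.0093 over the members and -0.0079 over all genes. The unadjusted 95% interval of the change lay within 1.5-fold in both directions in 36 of the 43 members (83.7%), beside 93.0% of all genes. Among the 38 members not called it did so in 35, and it reached beyond that in Eif2ak2, Bst2 and Dtx3l.

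**Figure D1:**
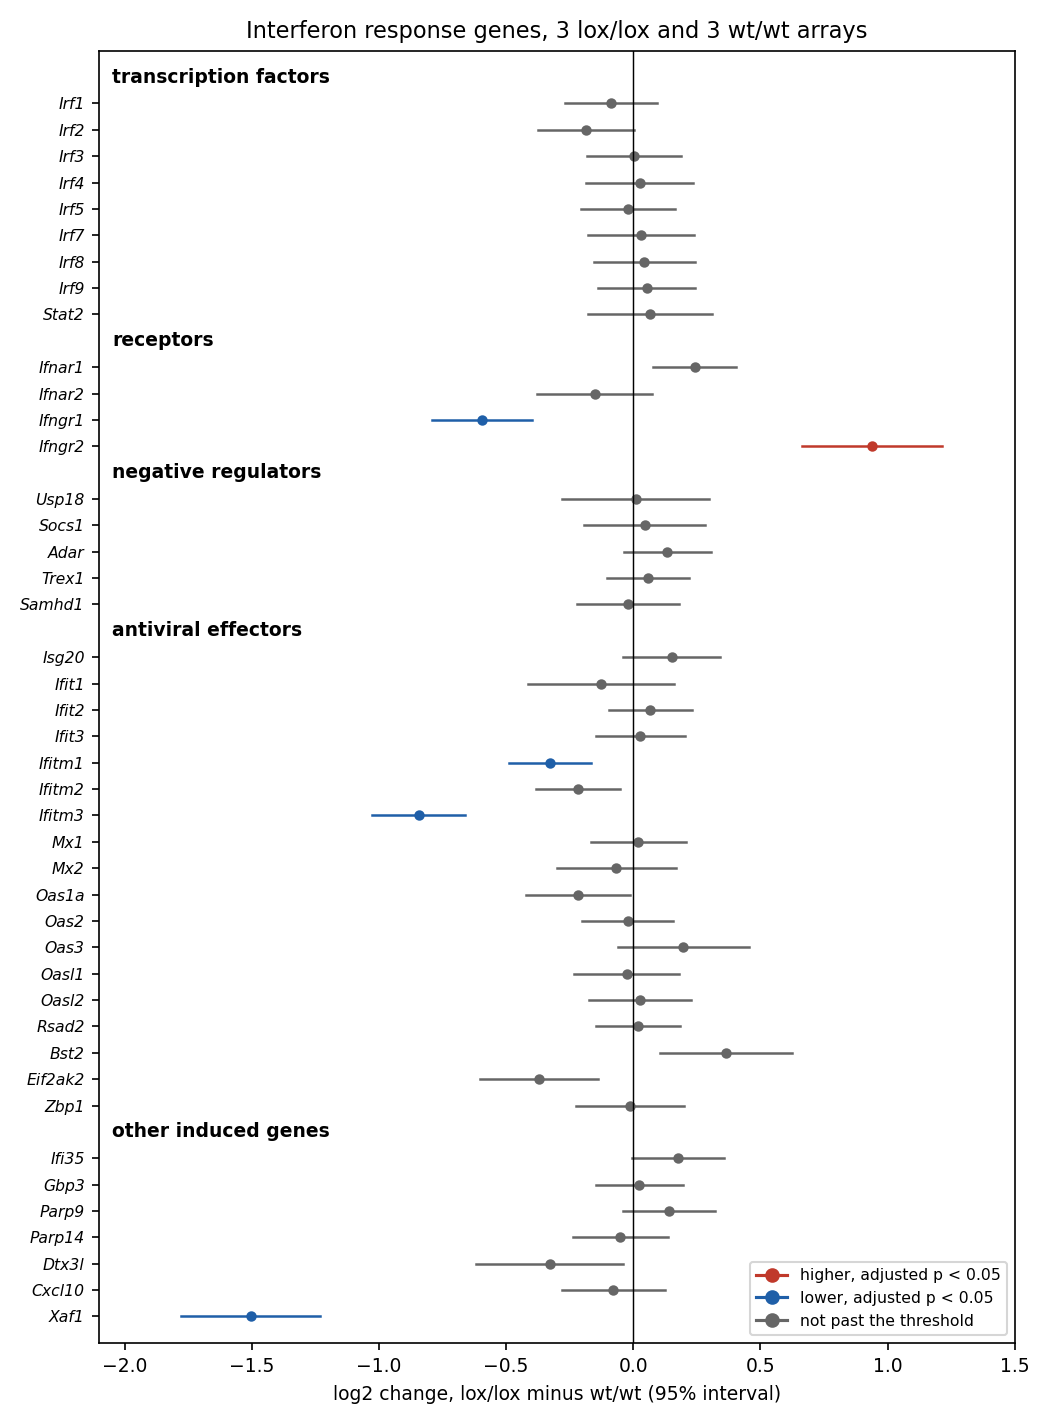
Change of each of the 43 measured interferon response genes (x axis, log2 intensity of lox/lox minus wt/wt, point with 95% interval from limma, n = 3 arrays each), grouped by role (y axis). Xaf1 at -1.50 and Ifngr2 at 0.94 lie farthest from 0, and 38 genes did not pass the threshold.

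**Figure D2:**
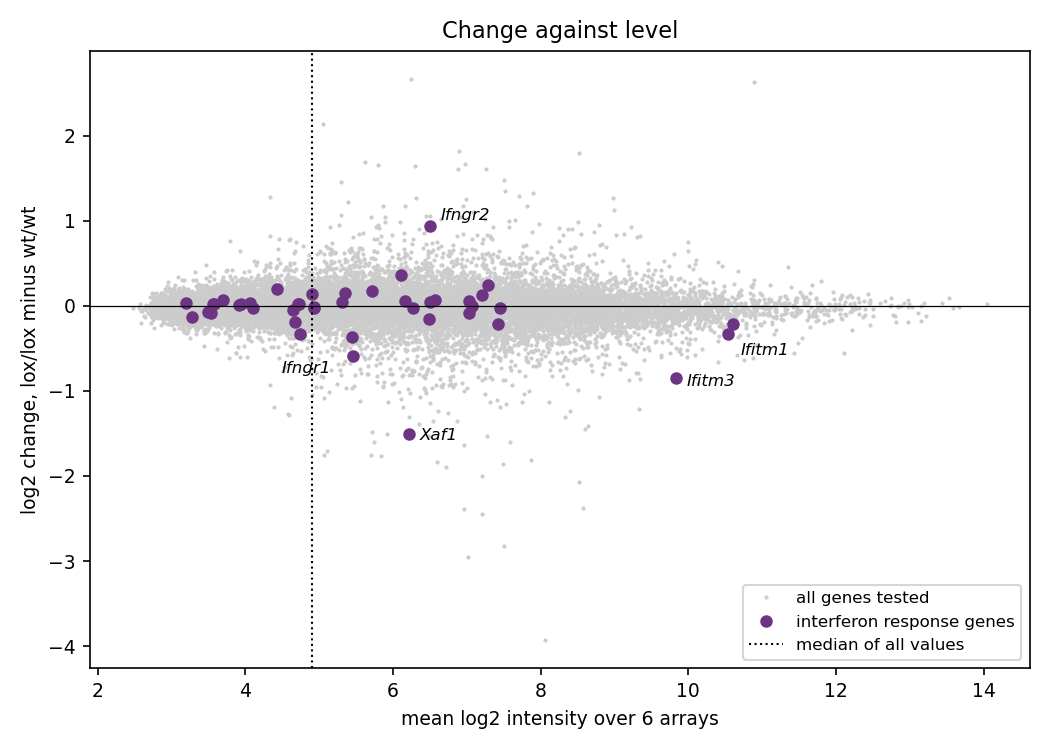
Change (y axis, log2 intensity of lox/lox minus wt/wt) against mean level over 6 arrays (x axis, log2 intensity) for all 19938 genes (grey) and the 43 interferon response genes (purple). The 5 labelled genes passed the threshold, and the 17 members left of the dotted line, the median of all values, have changes from -0.33 (Dtx3l) to 0.20 (Oas3).

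The 4 receptor genes held the only member called higher, and the subunits of the interferon gamma receptor moved in opposite directions. Ifngr2, the subunit that brings in Jak2, had levels of 7.22, 7.003 and 6.69 in lox/lox cells, against 6.07, 5.92 and 6.11 in wt/wt cells. The genotypes did not overlap, and lox/lox replicate 3 was the lowest of its group. The change was 0.94 (SE 0.12, adjusted p = 0.00159 in limma). Ifngr1, the subunit that binds the ligand and Jak1, had levels of 5.08, 5.09 and 5.29 in lox/lox cells, against 5.73, 5.85 and 5.67 in wt/wt cells. Every lox/lox array was below every wt/wt array, and the change was -0.59 (SE 0.089, adjusted p = 0.00327 in limma). Both genes were called in each of the 6 fits without 1 array.

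The type I receptor genes did not pass. Ifnar1, the subunit bound by Tyk2, had levels of 7.42, 7.35 and 7.43 in lox/lox cells, against 7.10, 7.20 and 7.18 in wt/wt cells. Every lox/lox array was higher than every wt/wt array, but the change of 0.24 (SE 0.074) had an adjusted p of 0.0955 in limma. After quantile normalization the adjusted p was 0.0461, and over all alternatives it ran from 0.0461 to 0.240. Ifnar2, the subunit with the higher affinity for interferon, averaged 6.42 in lox/lox cells and 6.57 in wt/wt cells, with a change of -0.15 (95% interval -0.38 to 0.075). The arrays of the genotypes overlapped.

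The Ifitm genes encode small membrane proteins that block the fusion of virus with the cell, and Ifitm1 and Ifitm3 were the only antiviral effectors called. Ifitm3 had levels of 9.49, 9.29 and 9.47 in lox/lox cells, against 10.22, 10.31 and 10.25 in wt/wt cells. No arrays overlapped, the change was -0.84 (SE 0.082, adjusted p = 0.000334 in limma), and each of the 6 fits without 1 array called it. Ifitm1 had levels of 10.36, 10.39 and 10.35 in lox/lox cells, against 10.71, 10.74 and 10.64 in wt/wt cells. The genotypes were apart on all arrays, with a change of -0.33 (SE 0.073, adjusted p = 0.0254 in limma). That call was lost in each fit without 1 array (adjusted p 0.0601 to 0.0860). On its probe set with the highest mean, Ifitm2 had levels of 10.51, 10.48 and 10.49 in lox/lox cells, against 10.70, 10.78 and 10.65 in wt/wt cells. The arrays did not overlap there either, and the change of -0.22 did not pass (adjusted p = 0.136 in limma). On another Ifitm2 probe set, described below, the genotypes overlapped.

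These genes are close relatives, and probes for one may also read another's transcripts, so the values of single Ifitm genes are uncertain. Ifitm1 had a second probe set, with a change of -0.25, of the same sign as the first. Ifitm2 had 3 probe sets that list the same transcripts, of which the second had a change of -0.22 and the third one of 0.028. On the third, levels were 9.45, 9.37 and 9.48 in lox/lox cells, against 9.35, 9.61 and 9.25 in wt/wt cells. The genotypes overlapped there, and the difference between the probe sets was not tested. The relatives Ifitm5, Ifitm6, Ifitm7 and Ifitm10 had changes of 0.055, -0.017, -0.11 and -0.054, and none of the 4 was called.

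**Figure D3:**
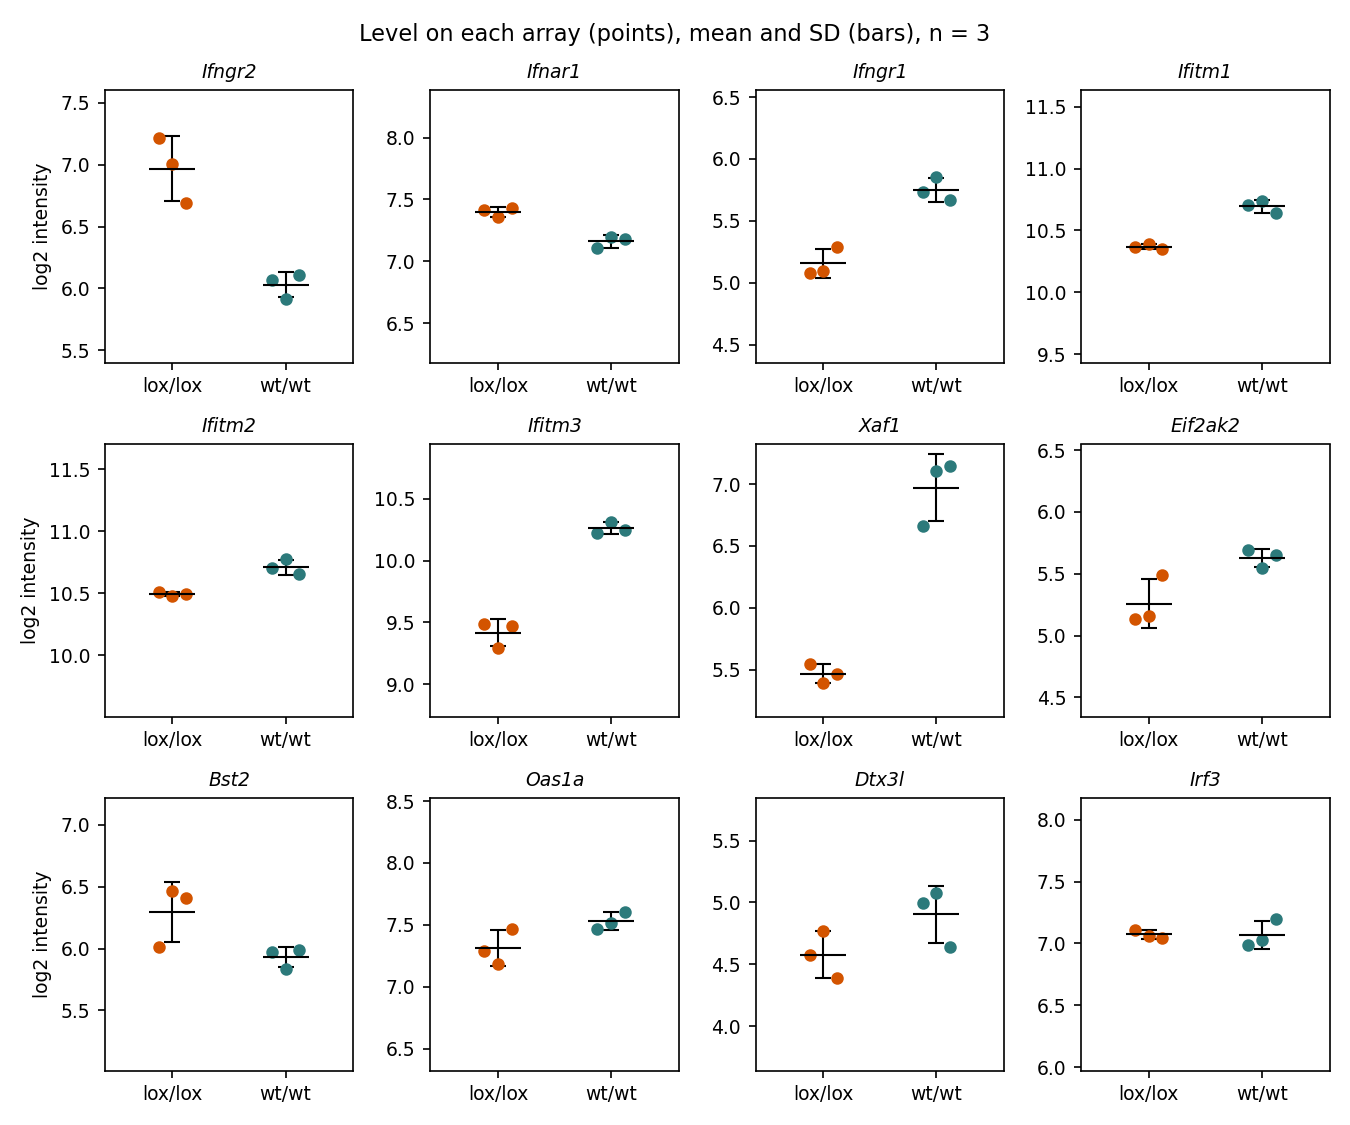
Level on each array (y axis, log2 intensity, all panels spanning the same range) of 12 members in lox/lox (orange) and wt/wt (teal) cells, with mean and SD of 3 arrays. Ifngr2, Ifngr1, Ifitm1, Ifitm3 and Xaf1 passed the threshold. In Dtx3l and Irf3 the genotypes overlap, and in the other 5 genes they do not. Ifitm2 is drawn from its probe set with the highest mean, and on another of its probe sets the genotypes overlap.

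Of the other 15 antiviral effectors measured, limma called 0, and 3 had an unadjusted p under 0.05. Eif2ak2 encodes PKR, the kinase that stops translation on binding double-stranded RNA. Its levels were 5.13, 5.16 and 5.49 in lox/lox cells, against 5.69, 5.55 and 5.65 in wt/wt cells. All lox/lox arrays were lower than the wt/wt arrays, the third the least. The change of -0.37 (SE 0.10) had an adjusted p of 0.0694. Without lox/lox replicate 3 it was -0.48 (adjusted p = 0.0147 in limma), in a range of adjusted p from 0.0141 to 0.2501 over all alternatives.

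Bst2, also called tetherin, holds budding virus at the cell surface. It had levels of 6.02, 6.46 and 6.41 in lox/lox cells, against 5.97, 5.84 and 5.99 in wt/wt cells. The first lox/lox array lay just above the wt/wt arrays and the others well above them. The change was 0.36 (SE 0.12, adjusted p = 0.112 in limma). Without lox/lox replicate 1 it was 0.50 (adjusted p = 0.0147), in a range of adjusted p from 0.0147 to 0.418. Oas1a, a synthetase of oligoadenylates that activate an RNase, had levels of 7.29, 7.18 and 7.47 in lox/lox cells, against 7.47, 7.51 and 7.61 in wt/wt cells. All lox/lox arrays were lower, the third only just, and the change of -0.22 did not pass (adjusted p = 0.238 in limma). The remaining 12 effectors had changes between -0.13 for Ifit1 and 0.20 for Oas3.

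Among the induced genes of other function Xaf1 was the one called. It encodes a zinc finger protein that promotes apoptosis by binding the caspase inhibitor XIAP. Its levels were 5.54, 5.39 and 5.46 in lox/lox cells, against 6.66, 7.11 and 7.14 in wt/wt cells. No arrays overlapped, and wt/wt replicate 1 was the lowest of the wt/wt arrays. The change was -1.50 (SE 0.12, 95% interval -1.78 to -1.23, adjusted p = 0.000122 in limma), and it lay between -1.66 and -1.42 in the 6 fits without 1 array, all of which called it.

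Dtx3l, a ubiquitin ligase that works with Parp9, had levels of 4.57, 4.77 and 4.39 in lox/lox cells, against 4.997, 5.08 and 4.64 in wt/wt cells. The genotypes overlapped, and the change of -0.33 did not pass (adjusted p = 0.206 in limma). Parp9 itself averaged 4.97 ± 0.064 in lox/lox cells and 4.83 ± 0.097 in wt/wt cells (SD, n = 3 each), a change of 0.14 (adjusted p = 0.436 in limma). Changes of the other 4 measured genes of this group, Ifi35, Gbp3, Parp14 and Cxcl10, lay between -0.080 and 0.18.

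None of the 9 transcription factor genes passed the test, and 0 of them had an unadjusted p under 0.05 in limma. Irf3 is activated by nucleic acid sensing and switches on interferon genes. It had levels of 7.11, 7.06 and 7.05 in lox/lox cells, against 6.99, 7.02 and 7.20 in wt/wt cells. The lox/lox arrays lay within the range of the wt/wt arrays, and the 95% interval of the change ran from -0.18 to 0.19. Irf9 and Stat2, which belong to the complex that binds the ISRE, had changes of 0.052 and 0.067. Irf1, an activator that interferon gamma induces, had a change of -0.089 on its main probe set and 0.088 on a second. Irf2, an antagonist of Irf1, had a change of -0.19 (adjusted p = 0.285 in limma), and its lox/lox arrays were all below the wt/wt arrays. Changes of Irf4, Irf5, Irf7 and Irf8 lay between -0.020 and 0.044.

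Of the 5 genes that restrain the response, limma called 0 and 0 had an unadjusted p under 0.05. Samhd1, which breaks down the building blocks of DNA, had levels of 7.35, 7.37 and 7.60 in lox/lox cells, against 7.54, 7.43 and 7.41 in wt/wt cells. The genotypes overlapped. Adar, an editor of double-stranded RNA that keeps it from sensors, averaged 7.27 ± 0.076 in lox/lox cells and 7.14 ± 0.042 in wt/wt cells (SD, n = 3 each). Its arrays did not overlap, and the change of 0.13 did not pass (adjusted p = 0.433 in limma). The DNA exonuclease Trex1, the signalling inhibitor Socs1 and Usp18, which removes Isg15 from proteins, had changes of 0.057, 0.044 and 0.0093.

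Many induced genes gave weak signals in both genotypes. For 17 members the mean over the arrays was at or below the median of all values. These were Ifit1, Ifit2, Ifit3, Mx1, Mx2, Oas2, Oas3, Oasl2, Rsad2, Usp18, Irf2, Irf4, Irf7, Gbp3, Parp14, Dtx3l and Cxcl10. Genotype means lay between 3.21 (Ifit3) and 4.74 (Oasl2) in lox/lox cells, and between 3.18 (Ifit3) and 4.90 (Dtx3l) in wt/wt cells. Ifit1, whose protein binds viral RNA, had levels of 3.51, 3.15 and 2.998 in lox/lox cells, against 3.36, 3.20 and 3.48 in wt/wt cells. Cxcl10, a chemokine that interferon gamma induces, had levels of 3.38, 3.55 and 3.55 in lox/lox cells, against 3.69, 3.58 and 3.44 in wt/wt cells. In both genes the genotypes overlapped. Limma called 0 of the 17, and Dtx3l alone had an unadjusted p under 0.05. No detection calls were used, so whether these genes were expressed was not determined.

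Promoter sequence was set beside these changes, since ISRE and GAS motifs are the sites through which interferon acts. The 250 bases before each start in RefSeq (GRCm38.p6) were searched for ISRE letters, which are GAAA, any 2 bases and GAAA again on either strand. They were also searched for GAS letters, which are TTC, any 3 bases and GAA and read alike on both strands. Of the 43 measured members 36 had a promoter entry. ISRE letters were in 12 of the 36 (33.3%), beside 3.46% of all 27025 genes with an entry, and GAS letters in 10 (27.8%), beside 8.13%. Of the 5 called members 0 had either motif in this window, and nothing about binding follows from that. The 12 members with ISRE letters had a median change of 0.021, within -0.22 to 0.36, and 0 were called. The 24 members without them had a median change of 0.014 and held the 5 called genes, beside 6.16% of all genes called. In the first set Irf2, Ifit1, Ifit3, Oas3, Rsad2, Gbp3 and Cxcl10 had a mean at or below the median of all values. In the second Irf4, Irf7, Ifit2, Oasl2 and Dtx3l did. Of all genes at or below that median 0.972% were called, and 10.0% of those above it. The part of level in this contrast was not tested. The promoters of Ifitm3, Ifitm1 and Ifitm2 are printed from their 5′ ends, to show neighbouring relatives that differ in the motif, with motif letters in capitals.
Ifitm3 (chr7:141010745-141010994, minus strand): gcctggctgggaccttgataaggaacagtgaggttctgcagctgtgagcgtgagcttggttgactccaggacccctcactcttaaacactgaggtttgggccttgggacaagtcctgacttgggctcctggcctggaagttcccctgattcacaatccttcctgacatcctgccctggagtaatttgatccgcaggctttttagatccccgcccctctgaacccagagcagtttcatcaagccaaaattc
Ifitm1 (chr7:140967826-140968075, plus strand): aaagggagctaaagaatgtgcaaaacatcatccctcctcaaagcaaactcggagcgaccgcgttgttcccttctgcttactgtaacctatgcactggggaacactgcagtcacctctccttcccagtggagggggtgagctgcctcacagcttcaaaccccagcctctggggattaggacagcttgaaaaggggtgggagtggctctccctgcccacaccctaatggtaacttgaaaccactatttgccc
Ifitm2 (chr7:140955962-140956211, minus strand): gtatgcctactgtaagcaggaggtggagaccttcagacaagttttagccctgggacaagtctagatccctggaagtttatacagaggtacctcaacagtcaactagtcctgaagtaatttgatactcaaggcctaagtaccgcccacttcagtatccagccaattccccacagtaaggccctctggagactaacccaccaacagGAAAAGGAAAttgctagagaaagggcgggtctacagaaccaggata
In Ifitm2 the capitals mark ISRE letters that begin 46 bases before the start. The promoters of Xaf1 and Ifngr2 are shown as those of the largest decrease and increase among the members, and hold neither motif.
Xaf1 (chr11:72301379-72301628, plus strand): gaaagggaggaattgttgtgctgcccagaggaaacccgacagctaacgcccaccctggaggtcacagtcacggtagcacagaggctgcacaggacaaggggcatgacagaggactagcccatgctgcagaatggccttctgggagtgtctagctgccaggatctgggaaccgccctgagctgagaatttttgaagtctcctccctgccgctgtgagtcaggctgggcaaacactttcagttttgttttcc
Ifngr2 (chr16:91546809-91547058, plus strand): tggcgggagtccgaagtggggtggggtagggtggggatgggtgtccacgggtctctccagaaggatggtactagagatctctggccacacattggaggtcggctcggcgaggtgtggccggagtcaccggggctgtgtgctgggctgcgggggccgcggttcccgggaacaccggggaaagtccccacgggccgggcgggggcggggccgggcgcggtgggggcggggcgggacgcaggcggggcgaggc
Those of Ifit1, Ifit3 and Bst2 show the motifs in members that were not called.
Ifit1 (chr19:34640639-34640888, plus strand): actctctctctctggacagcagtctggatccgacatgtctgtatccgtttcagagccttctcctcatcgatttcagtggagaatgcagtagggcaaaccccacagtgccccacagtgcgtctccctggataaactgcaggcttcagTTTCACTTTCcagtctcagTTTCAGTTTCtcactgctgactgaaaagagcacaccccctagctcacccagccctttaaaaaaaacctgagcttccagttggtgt
Ifit3 (chr19:34583279-34583528, plus strand): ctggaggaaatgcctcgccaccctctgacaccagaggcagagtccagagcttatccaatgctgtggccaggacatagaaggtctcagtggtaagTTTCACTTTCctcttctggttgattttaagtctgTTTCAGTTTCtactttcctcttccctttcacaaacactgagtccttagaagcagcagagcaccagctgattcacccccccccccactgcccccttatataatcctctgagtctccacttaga
Bst2 (chr8:71537473-71537722, minus strand): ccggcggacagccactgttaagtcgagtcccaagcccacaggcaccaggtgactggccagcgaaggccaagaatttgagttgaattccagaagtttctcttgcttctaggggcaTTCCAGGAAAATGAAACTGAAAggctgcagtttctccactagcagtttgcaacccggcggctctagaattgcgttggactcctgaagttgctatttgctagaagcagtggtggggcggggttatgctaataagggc
Capitals mark ISRE letters that begin 104 and 85 bases before the start in Ifit1, 156 and 122 in Ifit3, and 130 and 124 in Bst2, where the matches overlap. In Bst2 they also mark GAS letters from 136 bases before the start, which run into the first ISRE match. Beside these promoters, Ifit1, Ifit3 and Bst2 had changes of -0.13, 0.028 and 0.36.

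Several members lie next to each other, and measured neighbours were compared in RefSeq gene order. Ifnar2, Il10rb, Ifnar1 and Ifngr2, all receptor genes, follow each other among the measured genes of chromosome 16. Their changes were -0.15, -0.020, 0.24 and 0.94, and Ifngr2 alone was called. Il10rb averaged 3.65 in lox/lox cells and 3.67 in wt/wt cells, below the median of all values. Next to Ifngr2 on its other side, Tmem50b averaged 7.05 in lox/lox cells and 7.34 in wt/wt cells, a change of -0.29 (adjusted p = 0.203 in limma). Olig1, a neural transcription factor gene before Ifnar2, was called lower at -0.33, and lost its call in each of the 6 fits without 1 array (adjusted p 0.0506 to 0.116).

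On chromosome 7 the measured genes Ifitm5, Ifitm2, Ifitm1, Ifitm3, Ifitm6 and B4galnt4 follow each other, with changes of 0.055, -0.22, -0.33, -0.84, -0.017 and -0.67. The value for Ifitm2 is that of its probe set with the highest mean. Its other probe sets had changes of -0.22 and 0.028. The probe set with 0.028 is numbered between those of Ifitm5 and Ifitm3 on the array, and those with -0.22 are not. Which of the Ifitm2 probe sets reads this locus was not tested, so a graded decrease along these genes is uncertain. B4galnt4, a glycosyltransferase gene, averaged 6.65 ± 0.17 in lox/lox cells and 7.32 ± 0.050 in wt/wt cells (SD, n = 3 each). It was called (adjusted p = 0.00249 in limma), while Ifitm6, between it and Ifitm3, was not. Ifitm6 averaged 3.95 in lox/lox cells and 3.97 in wt/wt cells, below the median of all values. Of all genes at or below that median 0.972% were called.

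On chromosome 11 Slc13a5, a citrate transporter gene next to Xaf1, averaged 4.63 ± 0.073 in lox/lox cells and 5.64 ± 0.19 in wt/wt cells (SD, n = 3 each), a change of -1.02 (SE 0.10, adjusted p = 0.000345 in limma). Fbxo39, on the other side of Xaf1, had a change of -0.24 (adjusted p = 0.255). Smtnl2, 3 measured genes from Xaf1, was called lower at -0.63 (adjusted p = 0.00492). On chromosome 10 Olig3, the neighbour of Ifngr1, was called lower at -0.53, and lost its call without lox/lox replicate 2 or wt/wt replicate 3 (adjusted p up to 0.0617). Olig3 averaged 4.002 in lox/lox cells and 4.53 in wt/wt cells, below the median of all values. Perp, a p53 target gene 3 measured genes from Ifngr1, was called higher at 0.47, and lost its call without lox/lox replicate 3 (adjusted p = 0.0514). Of the 8 measured neighbours of each called member, 2 were called for Ifngr1, Ifitm1, Ifitm3 and Xaf1 and 1 for Ifngr2, beside 6.16% of all genes and 10.0% of those above the median of all values. Ifitm1 and Ifitm3 count there as neighbours of each other, and B4galnt4 counts for both.

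**Figure D4:**
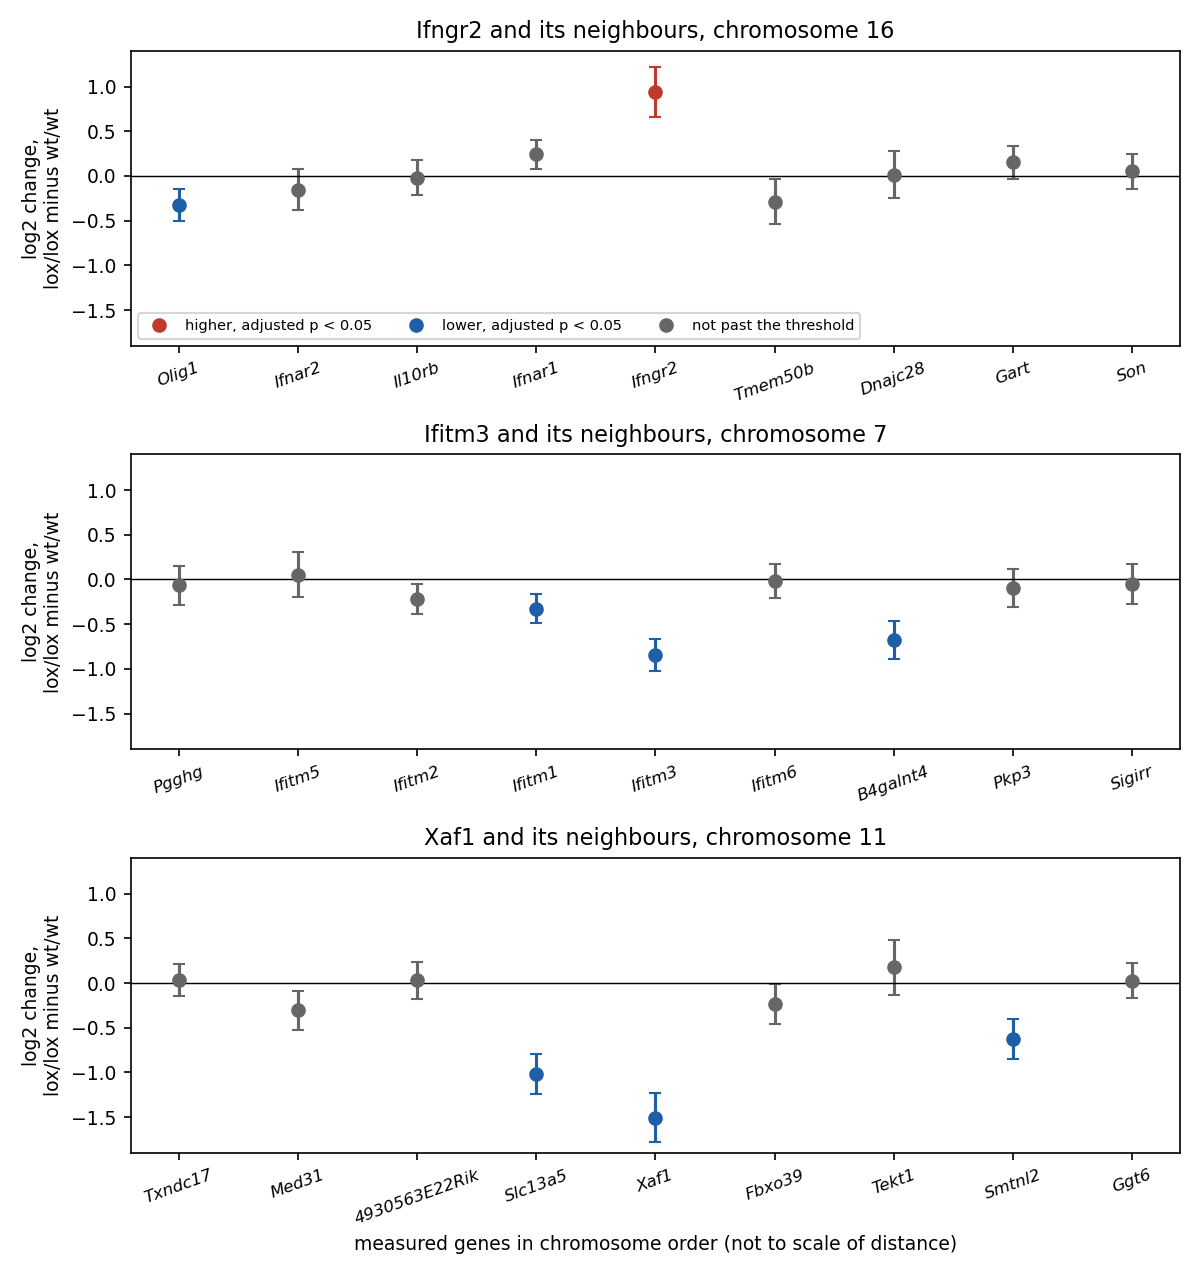
Change (y axis, log2 intensity of lox/lox minus wt/wt, point with 95% interval) of Ifngr2, Ifitm3 and Xaf1 and of 4 measured genes on each side of each, in chromosome order (x axis, distances not to scale). Slc13a5 beside Xaf1, at -1.02, and Ifitm1 and B4galnt4 near Ifitm3, at -0.33 and -0.67, were also called lower, and no neighbour of Ifngr2 was called higher. Ifitm2 is drawn from its probe set with the highest mean, and another of its probe sets had a change of 0.028.

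The other genes of the pathway came from 4 lists, of interferon genes, sensing genes, JAK-STAT genes and further induced genes, with 106 measured in all. Of these 3 were called higher and 8 lower (10.4%, beside 6.16% of all genes), and the median change was -0.011. A mean at or below the median of all values was found in 56 of the 106, and no detection calls were used. Of 16 interferon genes limma called 0, and 1, Ifna12, had an unadjusted p under 0.05. The mean of 13 of the 16 was at or below the median of all values. Ifna12 had levels of 3.24, 3.39 and 3.77 in lox/lox cells, against 3.87, 3.72 and 4.64 in wt/wt cells. The genotypes overlapped, and the change was -0.61 (adjusted p = 0.156). Ifnb1, the type I gene switched on early after sensing, averaged 3.77 in lox/lox cells and 3.79 in wt/wt cells. Ifng, the gene of interferon gamma, averaged 4.04 in lox/lox cells and 3.90 in wt/wt cells (adjusted p = 0.704 in limma).

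Among 15 sensing genes 2 were called higher and 1 lower (20%, beside 6.16% of all genes). Of the 15, 10 had a mean above the median of all values, where 10.0% of all genes were called. Ddx58, which encodes the RNA sensor RIG-I, had levels of 7.85, 7.71 and 7.62 in lox/lox cells, against 7.03, 6.90 and 6.90 in wt/wt cells, with a change of 0.78 (SE 0.086, adjusted p = 0.000572 in limma). Sting1, the adaptor of cytosolic DNA sensing, had levels of 6.35, 6.12 and 6.27 in lox/lox cells, against 5.46, 5.36 and 5.45 in wt/wt cells, with a change of 0.82 (SE 0.085, adjusted p = 0.000411 in limma). Mavs, the mitochondrial adaptor through which RIG-I signals, was lower instead. Its levels were 7.64, 7.503 and 7.73 in lox/lox cells, against 8.10, 8.19 and 8.23 in wt/wt cells, with a change of -0.55 (SE 0.085, adjusted p = 0.00386 in limma). In none of these 3 did the genotypes overlap, and each was called in all 6 fits without 1 array. The RNA sensor gene Ifih1 averaged 3.62 in lox/lox cells and 3.75 in wt/wt cells, the DNA sensor gene Cgas averaged 3.67 in lox/lox cells and 3.76 in wt/wt cells, and neither was called.

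Among 18 JAK-STAT genes 0 were called higher and 2 lower (11.1%, beside 6.16% of all genes). Of the 18, 16 had a mean above the median of all values, where 10.0% of all genes were called. Jak1, a kinase of the type I and the interferon gamma receptors, had levels of 7.10, 6.998 and 7.20 in lox/lox cells, against 7.47, 7.66 and 7.69 in wt/wt cells. No arrays overlapped. The change was -0.51 (SE 0.091, adjusted p = 0.00849 in limma), and without lox/lox replicate 2 its adjusted p was 0.0506. Irf2bpl, named for its likeness to a protein that binds Irf2, had a change of -0.61 (SE 0.089, adjusted p = 0.00275). Jak2 and Tyk2, the partner kinases, had changes of -0.25 and 0.18, and neither passed (adjusted p = 0.215 for Jak2 and 0.353 for Tyk2).

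Of 57 further induced genes 1 was called higher and 5 lower (10.5%, beside 6.16% of all genes). A mean above the median of all values was found in 21 of the 57. Ifi30, a lysosomal thiol reductase, had levels of 8.46, 8.78 and 8.95 in lox/lox cells, against 8.22, 8.03 and 7.95 in wt/wt cells, with a change of 0.66 (SE 0.12, adjusted p = 0.0111 in limma). Ube2l6, which passes Isg15 on to proteins, had levels of 5.30, 5.31 and 5.16 in lox/lox cells, against 5.94, 6.21 and 6.03 in wt/wt cells, with a change of -0.81 (SE 0.091, adjusted p = 0.000657 in limma). In neither gene did the genotypes overlap. Sp100, Pml and Daxx, components of the same nuclear bodies, were called lower at -0.56, -0.39 and -0.28, and Plscr1, a phospholipid scramblase gene, at -0.35. Their adjusted p were 0.0112 for Sp100, 0.0165 for Pml, 0.0481 for Daxx and 0.0489 for Plscr1 in limma. Sp100 averaged 3.59 in lox/lox cells and 4.15 in wt/wt cells, below the median of all values. Of all genes at or below that median 0.972% were called.

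Of the 6 fits without 1 array, all called Ube2l6 and none called Daxx (adjusted p up to 0.170). Plscr1 was called in 1, the fit without lox/lox replicate 3, and its adjusted p reached 0.197 without lox/lox replicate 2. A second Plscr1 probe set had a change of -0.46 with all arrays. Adjusted over all probe sets in limma, its p was 0.0350 and that of the first 0.0524. Ifi30 and Sp100 lost their calls without lox/lox replicate 2 or wt/wt replicate 3, with adjusted p up to 0.0600 for Ifi30 and 0.0576 for Sp100. Pml lost its call without lox/lox replicate 1, lox/lox replicate 2 or wt/wt replicate 3, with an adjusted p up to 0.0827. Over the 4 lists the genes called lower numbered 8 with all arrays, 3 without lox/lox replicate 2 and 4 without wt/wt replicate 3.

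**Figure D5:**
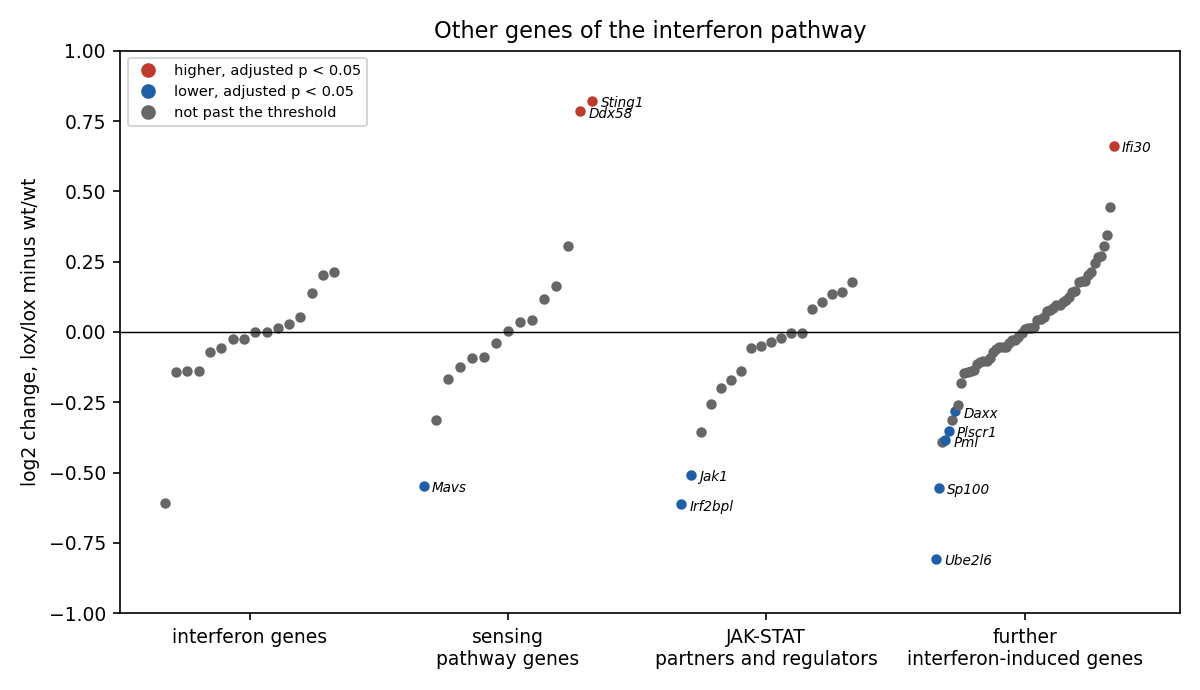
Change (y axis, log2 intensity of lox/lox minus wt/wt) of the 106 other measured genes of the interferon pathway in 4 lists (x axis), sorted within each list. The 3 red points, Sting1, Ddx58 and Ifi30, were called higher and the 8 blue points lower, and the interferon genes hold no called gene. Of the 16 interferon genes, 13 had a mean at or below the median of all values.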

How the data were processed

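RNA of 3 Scc1 lox/lox and 3 Scc1 wt/wt cultures was measured on 1 array each, and the number of arrays limits the precision. The deposited log2 intensities of 35556 probe sets were made by the authors with RMA in affy, per the submitters' processing notes. The sources used here do not give its version, options or genome build. RMA gives the arrays like distributions, so a change in total RNA per cell cannot be seen. Array medians ran from 4.85 to 4.94.

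The platform annotation gave 1 symbol to 21789 probe sets, several to 1621 and none to 12146. The highest-mean probe set stood for each of 19938 genes, with no filter. The lox/lox and wt/wt arrays were set against each other by lmFit and eBayes (limma 3.58.1, R 4.3.3, with 6.14 prior and 4 residual degrees of freedom), and p-values were adjusted by Benjamini-Hochberg across all genes. The design text calls the samples biological replicates. Simulated arrays served to test the code.

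The members, role groups and lists were chosen with earlier results of these data known. Named in full were members that were called, had an unadjusted p under 0.05 or a log2 change of at least 0.5, or had the highest mean of their role group, and up to 4 called genes per other list. Further named genes, the neighbours, the motif search and the printed promoters were chosen after values were seen. The alternatives were 3 scalings, a filter on dim genes, adjustment over all probe sets, a trended and robust eBayes, array weights, a replicate block, each array left out, and stricter thresholds. Promoter sequences come from RefSeq (GRCm38.p6).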

Additional observations from a re-analysis of the deposited data

How the results depend on the processing

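Members called lower numbered 3 to 5 over the alternatives, and 3 to 4 in the fits without 1 array. The 1 member called higher became 2 after quantile normalization, where Ifnar1 joined Ifngr2. Without 1 array 1 to 2 were called higher, and without lox/lox replicate 1 the second was Bst2. Xaf1, Ifitm3, Ifngr1 and Ifngr2 were called under every alternative run. The median change of the members ran from -0.035 (without wt/wt replicate 2) to 0.018 in the fits without 1 array. Of the other pathway genes 8 were called lower with all arrays and 3 to 8 without 1 array. They numbered 4 without both lox/lox replicate 3 and wt/wt replicate 2, a setting chosen after seeing the data, 4 at an adjusted p under 0.01, and 2 when the change also had to be at least 1.5-fold at an adjusted p under 0.05. Without those 2 arrays Eif2ak2 was called (adjusted p = 0.0187 in limma) and Ifitm1 was not (adjusted p = 0.121).

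Same-numbered arrays did not deviate together (correlations of deviations 0.10, -0.23 and -0.10), while differently numbered pairs had correlations from -0.25 to 0.32, the highest for lox/lox replicate 3 with wt/wt replicate 2. The numbers were therefore not read as pairs, and whether arrays shared a batch was not tested. With the replicate block 1 member was called higher and 3 lower, since Ifitm1 had an adjusted p of 0.0613, and Daxx, Plscr1 and Olig1 lost their calls (adjusted p of 0.114, 0.0785 and 0.0707). Eif2ak2 was called with the filter on dim genes (adjusted p = 0.0469, with fewer genes tested) and with array weights (adjusted p = 0.0141), and Ifitm2 with the trended and robust eBayes (adjusted p = 0.0160). The cause was not tested. Genes with a change near 0 turned sign. Irf3, at 0.0030, had -0.016 after median centring, -0.033 with array weights, -0.040 to 0.069 without 1 array and -0.0065 without both arrays above. Samhd1, at -0.021, had 0.0037 after quantile normalization, -0.10 to 0.023 without 1 array and -0.11 without both. Weak signal without detection calls limits what can be said of the 17 members and 56 other pathway genes at or below the median of all values.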
